A study of Mus musculus with 6 samples.

Results

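The apolipoprotein genes Apoa1, Apoa2, Apoa4, Apoa5, Apob, Apoc1, Apoc2, Apoc3, Apoe and Apom were followed in mouse liver after short-term withdrawal of nitisinone (NTBC). These 10 genes were represented by every probe set whose single gene symbol in the array annotation was one of theirs, which gave 16 of 45037 probe sets and 10 of 18193 genes, and none was left out by a filter. Gene expression was measured on Affymetrix mouse genome arrays, 1 per mouse, with whole liver RNA from 3 mice kept on the drug (FRG+NTBC) and 3 taken off it (FRG-7dNTBC). All 6 were male FRG mice on the C57Bl/6J background, carrying the Fah-/-, Rag2-/- and Il2rg-/- knockouts, and were aged 12 weeks at collection. FRG+NTBC mice drank 16 mg/l NTBC, an inhibitor of tyrosine breakdown upstream of the missing enzyme Fah, without interruption, while FRG-7dNTBC mice had none for the last 7 days, from 11 weeks of age. Both groups ate a chow low in tyrosine and phenylalanine, and the drug was given in water with 3% dextrose. Whether the dextrose was kept during withdrawal is not given in the sources used here. Both groups lack Fah, Rag2 and Il2rg, so neither shows the liver of a wild-type mouse or of one with lymphocytes.

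Apolipoproteins are the proteins that coat the lipid particles of plasma, and the liver makes most of those in the blood. Apob is the backbone of very low density lipoprotein (VLDL), to which triglyceride is added during assembly in the endoplasmic reticulum, and Apoa1 is the backbone of high density lipoprotein (HDL). The smaller ones move between particles and set how these are handled: Apoc2 activates lipoprotein lipase, Apoc3 inhibits it, Apoa5 promotes it, and Apoe binds the receptors that clear remnants. Many of these genes lie in gene clusters that arose by duplication.

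After withdrawal, Apoa4, a lipid-binding apolipoprotein of triglyceride-rich particles and HDL, rose 2.51-fold and 3.71-fold by its 2 probe sets. Apoc2 rose 2.24-fold, and Apoa5 fell to 55.9% of its FRG+NTBC level. The other 7 genes passed no test in either direction, among them Apoa1, Apob and Apoe, and the fitted changes of their brightest probe sets lay between -0.40 and -0.08 on the log2 scale. Of the 16 probe sets, limma called 3 higher and 1 lower, with a threshold of 0.05 on p-values adjusted by Benjamini-Hochberg over the full array. Over the full array 14% of probe sets were higher and 13.9% lower, so 4 of 16 is a share close to that of all probe sets. With a fold of at least 2 as well, 3 member probe sets were higher and 0 lower, against 7.61% and 5.12% of all probe sets. By the brightest probe set of each gene, 2 genes were higher and 1 was lower, against 17.4% and 12.7% of all genes. The groups did not overlap at 7 of the 16 probe sets, where 44.1% of all probe sets did not overlap. The median log2 change was -0.11 over the 16 probe sets and -0.08 over all probe sets. Scaling all arrays to one 75th percentile moved that overall median to -0.21 and the share of all calls that were higher from 50.1% to 35.7%, and left the counts of members as given.

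**Figure D1:**
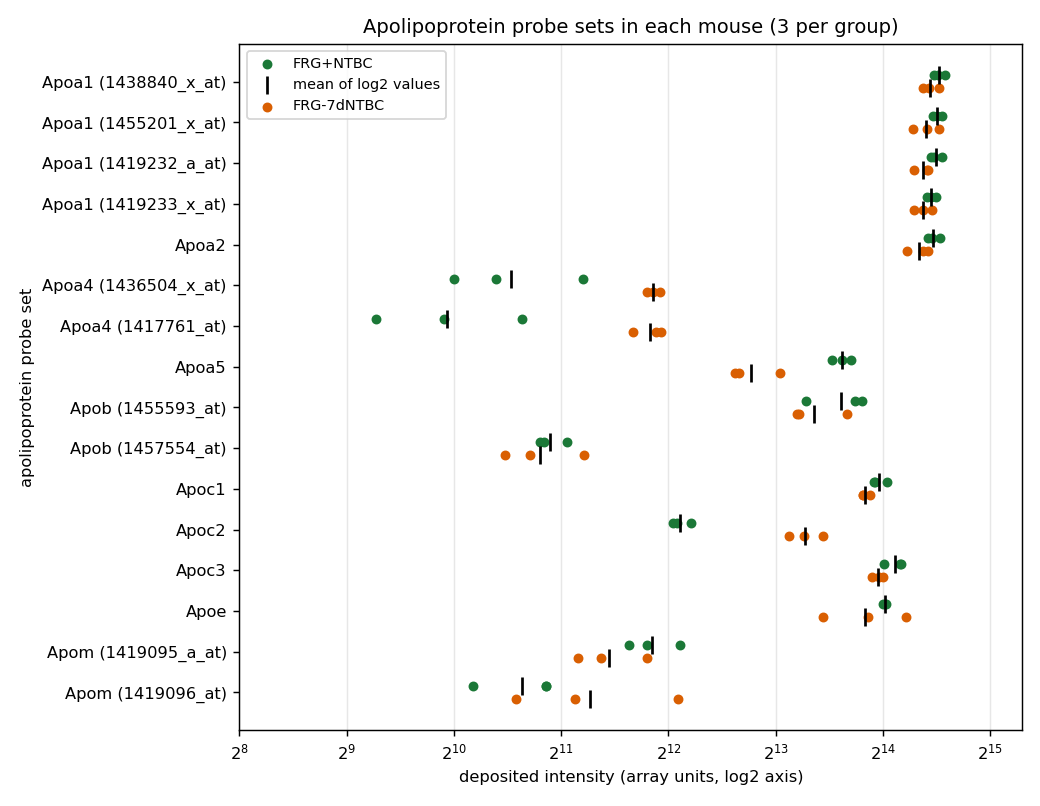
Deposited intensity (log2 axis) of each of the 16 apolipoprotein probe sets in each mouse, 3 FRG+NTBC (green) and 3 FRG-7dNTBC (orange), with the mean of the log2 values as a black tick. The groups stand apart at both Apoa4 probe sets, at Apoa5 and at Apoc2, while Apoa1 and Apoa2 sit at the upper end of the scale in every mouse.

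Intensities below are the deposited values on a linear scale, in array units, and are compared between mice for the same probe set only. In bulk liver, fewer cells of a type and less RNA per cell cannot be told apart. The 3 mice of a group are separate animals, and the exact permutation test of 3 against 3 cannot give a p below 0.1, so the calls rest on limma, which pools information on the spread over all probe sets.

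Apoc2, the activating cofactor of the lipase, was higher in all withdrawn mice. Its intensity was 4738, 4329.6 and 4211 in FRG+NTBC mice and 11113, 9809.8 and 8903 in FRG-7dNTBC mice. Every withdrawn mouse stood above every treated mouse, and the lowest withdrawn value was higher than the highest treated value by more than the whole range of the treated group. The means were 4426 ± 276 and 9942 ± 1111 (SD, n = 3 each), a log2 change of 1.16 (SE 0.13, 95% interval 0.86 to 1.47, limma adjusted p = 0.000593).

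Apoa5, a positive regulator of lipoprotein lipase, was the only member called lower. Its intensity was 11747, 13308 and 12590.1 in FRG+NTBC mice and 6472, 6295 and 8422 in FRG-7dNTBC mice. The groups were separate, and among the withdrawn mice replicate 3 stood nearest to the treated ones. The means were 12548 ± 781 and 7063 ± 1180.4 (SD, n = 3 each), a log2 change of -0.84 (SE 0.15, 95% interval -1.18 to -0.50, limma adjusted p = 0.00438).

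Apoc3, which inhibits the lipase and slows remnant uptake, passed no test. It read 18433, 16498 and 18306 in FRG+NTBC mice and 16384, 15287 and 15936 in FRG-7dNTBC mice. All withdrawn values were below all treated ones, by as little as the gap between 16384 and 16498. The log2 change was -0.16 (SE 0.12, 95% interval -0.43 to 0.11, limma adjusted p = 0.352). Apoc1, which hinders receptor binding of remnants, was similar in size of change. Its intensity was 16845, 15500.2 and 15608 in FRG+NTBC mice and 14362, 15076 and 14362 in FRG-7dNTBC mice. These groups did not overlap either, and the log2 change was -0.13 (SE 0.11, 95% interval -0.39 to 0.13, limma adjusted p = 0.438). The activating and promoting cofactors of lipoprotein lipase therefore differed in sign, Apoc2 higher and Apoa5 lower. The intervals of Apoc3 and Apoc1 held neither of these log2 changes. Both genes lie near the top of the intensity scale, where signal can be compressed. Their intervals thus describe array signal and cannot exclude a transcript change of that size.

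Apoa4 had the largest change and the largest spread under treatment. Its brighter probe set (1436504_x_at) read 1024, 2353 and 1342 in FRG+NTBC mice and 3566, 3875 and 3717 in FRG-7dNTBC mice. Its other probe set (1417761_at) read 617, 1585 and 962 in FRG+NTBC mice and 3769, 3902 and 3259 in FRG-7dNTBC mice. Both probe sets put the treated mice in the same order, with replicate 2 the highest and replicate 1 the lowest, and both placed all withdrawn mice above them. The highest treated mouse was 2.30-fold and 2.57-fold above the lowest, whereas the withdrawn mice lay within 1.09-fold and 1.20-fold of each other. On the log2 scale the SD was 0.61 and 0.68 under treatment and 0.06 and 0.14 after withdrawal. The log2 changes were 1.33 (SE 0.27, 95% interval 0.70 to 1.96, limma adjusted p = 0.00855) and 1.89 (SE 0.30, 95% interval 1.19 to 2.59, limma adjusted p = 0.00276). Leaving out 1 mouse at a time kept both calls, with the log2 change of the brighter probe set lowest (1.07) when FRG+NTBC replicate 1 was left out and highest (1.67) when FRG+NTBC replicate 2 was. Fitted without the pooled spread, neither probe set passed, at adjusted p = 0.0874 and 0.0569.

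Because Apoa4 is also a major product of the small intestine, enterocyte markers were read beside it. Of 7 listed genes 6 were measured and none passed the test, and their summed intensity was 1246 to 2057 in FRG+NTBC and 2127 to 2361 in FRG-7dNTBC mice, with no overlap. Their part in the change of Apoa4 was not tested. That sum is mostly Fabp2, a fatty acid binding protein that averaged 1611 and 2163 (log2 change 0.46, limma adjusted p = 0.143). Vil1, a brush border protein, averaged 21.4 and 14.6, and Cdh17, an intestinal cadherin, 10.9 and 16.0. These levels lie near or below the 20.1 of Rag2, a gene knocked out in these mice, so no change is read from them.

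The 3 genes whose profile over the 6 arrays was most like that of Apoa4 were Nepro (Pearson r = 0.988), Fam83g (r = 0.988) and Acnat2, an acyltransferase (r = 0.986), among 11573 genes brighter than the median probe set. Of these 11573 genes, 56 had an r over 0.95. The 6 arrays fall into 2 groups, so these values include the difference between groups.

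**Figure D2:**
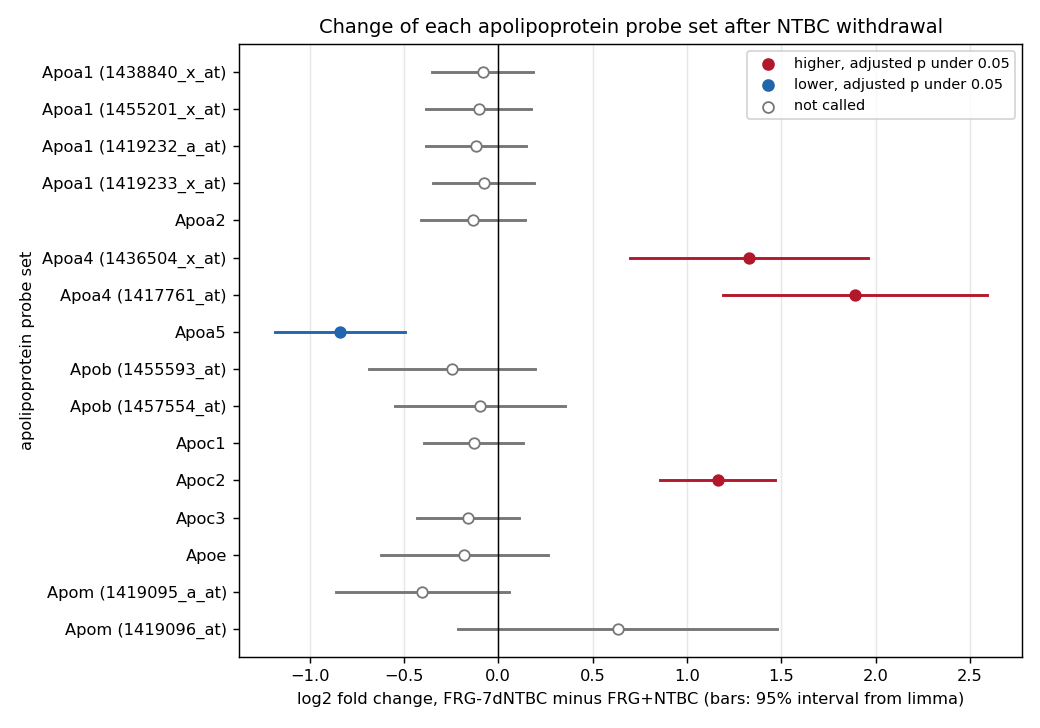
Difference in log2 intensity of each apolipoprotein probe set, withdrawn (FRG-7dNTBC) minus treated (FRG+NTBC), with the 95% interval from limma (3 mice per group). Both Apoa4 probe sets and Apoc2 lie to the right of 0 and Apoa5 to the left with intervals clear of 0, while the remaining 12 intervals include 0.

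The 4 probe sets of Apoa1, the main protein of HDL, all gave changes near 0. The brightest read 24492, 23332 and 22851 in FRG+NTBC mice and 22073, 23494 and 21174 in FRG-7dNTBC mice. The groups overlapped, since FRG-7dNTBC replicate 2 exceeded 2 of the treated mice. The means were 23558 ± 843 and 22247 ± 1169.7 (SD, n = 3 each), a log2 change of -0.08 (SE 0.12, 95% interval -0.35 to 0.18, limma adjusted p = 0.634). The other probe sets gave -0.10, -0.12 and -0.08 with adjusted p from 0.480 to 0.664, and of the 4 only the third in brightness (1419232_a_at) separated the groups.

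Apoa2, the second protein of HDL, showed a change of similar size. Its intensity was 23657, 21921 and 22537 in FRG+NTBC mice and 21174, 21921 and 19083 in FRG-7dNTBC mice. The withdrawn replicate 2 had exactly the value of treated replicate 2, and the other withdrawn mice were lower than all treated ones. The log2 change was -0.13 (SE 0.12, 95% interval -0.41 to 0.14, limma adjusted p = 0.449).

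Apom, a lipocalin of HDL that carries sphingosine 1-phosphate, gave no settled direction, since its probe sets differed in sign. The brighter one (1419095_a_at) read 3169, 4421 and 3566 in FRG+NTBC mice and 2288, 3566 and 2647 in FRG-7dNTBC mice, a log2 change of -0.40 (SE 0.20, 95% interval -0.86 to 0.05, limma adjusted p = 0.173). The dimmer one (1419096_at) read 1160.1, 1859 and 1859 in FRG+NTBC mice and 2241, 4359.7 and 1531 in FRG-7dNTBC mice, a log2 change of 0.63 (SE 0.37, 95% interval -0.21 to 1.48, limma adjusted p = 0.241). In both probe sets the withdrawn replicate 2 was the highest of its group, and the groups overlapped. With limma weights for the quality of each array, the brighter probe set was called lower, at -0.63 (adjusted p = 0.0236).

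Apob, the structural protein of VLDL, passed no test at either probe set. The brighter (1455593_at) read 9947, 13682 and 14263 in FRG+NTBC mice and 9410.1, 12944 and 9542 in FRG-7dNTBC mice. The spread inside each group was large, with treated replicate 1 and withdrawn replicate 2 lying among the mice of the other group. The means were 12631 ± 2342 and 10632 ± 2004 (SD, n = 3 each), a log2 change of -0.25 (SE 0.19, 95% interval -0.69 to 0.19, limma adjusted p = 0.380). The dimmer (1457554_at) read 1783, 2120.2 and 1833 in FRG+NTBC mice and 1675, 2369 and 1428 in FRG-7dNTBC mice, a log2 change of -0.10 (SE 0.20, 95% interval -0.55 to 0.35, limma adjusted p = 0.750). Withdrawn replicate 2 was the highest and replicate 3 the lowest of all 6 mice there.

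Apoe, the receptor ligand of remnants, had a stable level under treatment and a wide one after withdrawal. It read 16613, 16384 and 16728 in FRG+NTBC mice and 14869, 18951 and 11113 in FRG-7dNTBC mice. The treated mice lay between the lowest and the highest withdrawn mouse. The SD of the log2 values was 0.015 under treatment and 0.39 after withdrawal, and the log2 change was -0.18 (SE 0.19, 95% interval -0.62 to 0.26, limma adjusted p = 0.526). The difference in spread was not tested. Macrophages also make Apoe, and of 12 macrophage markers, all measured, 5 were higher and 0 lower after withdrawal, with a summed intensity of 1919.5 to 2916 in FRG+NTBC and 2501 to 6611 in FRG-7dNTBC mice. Their part in the level of Apoe was not tested. The higher ones were Cd14 (log2 change 2.60), Cd68 (2.23), Cd5l (1.84), Vsig4 (1.58) and Marco (1.09), and the median of the list was 0.93. Adgre1, the F4/80 antigen, had a log2 change of -0.08 (limma adjusted p = 0.865). The count of higher macrophage markers was 3 without FRG+NTBC replicate 1 or 2, or without FRG-7dNTBC replicate 1. It was 7 without FRG-7dNTBC replicate 2, and ranged from 2 to 7 over the alternatives run.

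Of the withdrawn mice, replicate 2 was the highest of its group in 7 of the 10 genes by their brightest probe sets, and replicate 3 the lowest in 5. Of the treated mice, replicate 1 was the highest in 5 of the 10 genes, and each was the highest in 2 to 5. Whether the groups differ in this was not tested. On the log2 scale and over all probe sets, Pearson's r was 0.988 to 0.993 for pairs of treated mice, 0.980 to 0.98999 for pairs of withdrawn mice and 0.930 to 0.955 for mixed pairs.

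The members that were called share gene clusters with members that were not called. In the mouse RefSeq annotation, Apoa1, Apoc3, Apoa4 and Apoa5 follow each other on chromosome 9 with no other annotated gene between them, and on chromosome 7 the order is Apoc2, Apoc4, Apoc1, Apoe, with a further gene, Gm44805, that spans Apoc2 and Apoc4. Signal from Gm44805 could not be told apart from that of either. Apoa2 lies on chromosome 1, Apob on 12 and Apom on 17. To compare neighbours, the log2 difference of 2 genes of a cluster was taken within each mouse and set against the FRG+NTBC mean of that difference, for 5 pairs in all. Apoa4 gained 1.41 on Apoa1, with withdrawn mice at 1.36, 1.39 and 1.48 and treated mice at -0.59, 0.68 and -0.10. Apoc2 gained 1.34 on Apoe, with withdrawn mice at 1.49, 0.96 and 1.59 and treated mice at 0.10, -0.01 and -0.08. The groups were apart in both pairs. Apoa5 lost against Apoa1, with a difference of -0.76 and withdrawn mice at -0.86, -0.99 and -0.42, all below the treated ones at -0.15, 0.10 and 0.05. These 3 pairs reached the smallest p possible (exact permutation p = 0.1, 0.167 after Benjamini-Hochberg adjustment over the 5 pairs), so none passed a threshold of 0.05. Apoc3 against Apoa1 differed by -0.08 (exact permutation p = 0.4) and Apoc1 against Apoe by 0.05 (exact permutation p = 0.8), and both pairs overlapped between groups. Apoa1, Apoc3, Apoc1 and Apoe lie near the top of the intensity scale, where signal can be compressed. All 5 differences therefore describe array signal, and equal transcript changes within a pair cannot be read from them. Apoc4, which lies between Apoc2 and Apoc1, was not a member of the set and fell, from 9219 ± 793 to 4925 ± 1212 (SD, n = 3 each), a log2 change of -0.93 (SE 0.20, limma adjusted p = 0.00995). Along the chromosome 7 cluster, Apoc2 was thus higher, its neighbour Apoc4 lower, and Apoc1 and Apoe not called.

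**Figure D3:**
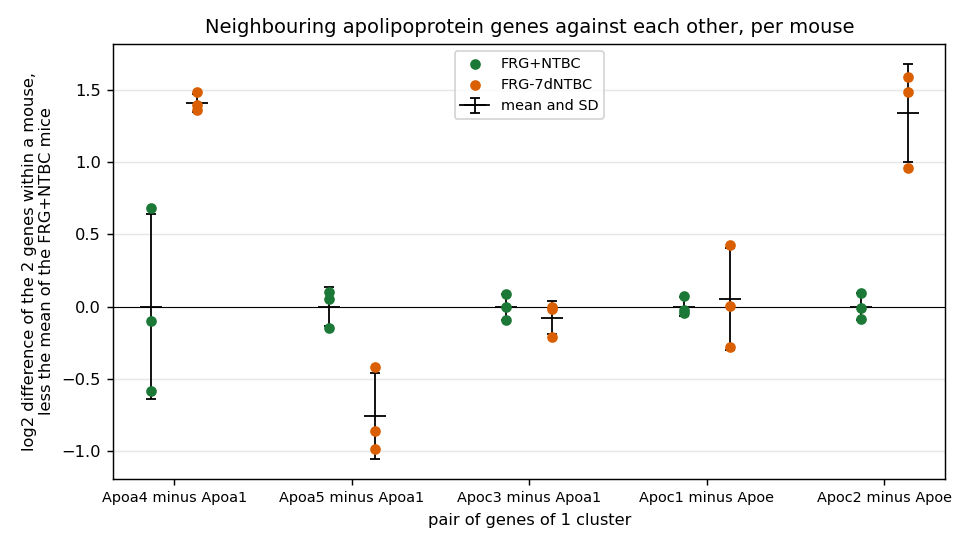
Log2 difference of 2 apolipoprotein genes of a cluster within each mouse, less the mean of the FRG+NTBC mice, for 5 pairs, with the group mean and SD (3 mice each). Apoa4 minus Apoa1 and Apoc2 minus Apoe stand above 0 and Apoa5 minus Apoa1 below 0 in all withdrawn mice, while Apoc3 minus Apoa1 and Apoc1 minus Apoe overlap between groups.

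The promoter windows of the called members are shown beside that of Apoa1, a neighbour of Apoa4 and Apoa5 that was not called, so that the sequence before each start can be read next to its change. Each is the 250 bases before a RefSeq transcript start in GRCm38.p6, written 5′ to 3′ on the strand of the gene, with capitals marking any match to CAAAGT (the short part of the HNF4A motif core CAAAGTCCA), AGGTCA (a nuclear receptor half-site) or TATAAA (the TATA box), searched on both strands. Apoa1 is chr9:46228380-46228629 (+), Apoa4 chr9:46240594-46240843 (+), Apoa5 chr9:46268358-46268607 (+) and Apoc2 chr7:19677942-19678191 (-).
Apoa1 (not called): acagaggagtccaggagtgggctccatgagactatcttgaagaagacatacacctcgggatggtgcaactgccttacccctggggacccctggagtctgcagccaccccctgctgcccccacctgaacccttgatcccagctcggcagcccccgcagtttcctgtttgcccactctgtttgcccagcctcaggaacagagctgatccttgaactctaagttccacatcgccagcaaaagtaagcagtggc
Apoa4 (higher): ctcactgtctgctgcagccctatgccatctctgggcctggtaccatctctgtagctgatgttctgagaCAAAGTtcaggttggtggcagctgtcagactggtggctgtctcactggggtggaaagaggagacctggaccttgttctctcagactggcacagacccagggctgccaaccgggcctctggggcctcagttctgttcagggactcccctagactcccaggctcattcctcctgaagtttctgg
Apoa5 (lower): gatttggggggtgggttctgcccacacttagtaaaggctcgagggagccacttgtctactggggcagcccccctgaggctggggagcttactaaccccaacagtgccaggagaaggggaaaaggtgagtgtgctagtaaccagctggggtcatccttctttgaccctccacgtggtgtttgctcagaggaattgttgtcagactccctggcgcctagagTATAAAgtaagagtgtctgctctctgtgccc
Apoc2 (higher): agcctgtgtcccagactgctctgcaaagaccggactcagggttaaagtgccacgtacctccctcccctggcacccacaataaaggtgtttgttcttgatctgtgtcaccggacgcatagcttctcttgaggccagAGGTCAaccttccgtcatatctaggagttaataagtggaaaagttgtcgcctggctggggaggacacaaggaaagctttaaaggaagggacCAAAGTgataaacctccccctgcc

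Windows were given for 8 of the 10 members, all but Apoc1 and Apoc3, 12 windows in all with alternative starts. Apoa4 held CAAAGT with its first base 182 bases before the start. Apoc2 held CAAAGT at 24 bases and AGGTCA at 115 bases before the start, the only member window with both. Apoa5 held 1 TATAAA site, 31 bases before the start of the printed window. The same site lies at 56 bases in a second, overlapping window from another start. Apoa1 held none of the searched letters. Among the members that were not called, Apob held TATAAA at 60 bases. Apoa2 held AGGTCA on the opposite strand at 238 bases in one window and TATAAA at 212 bases in the other. The second Apoe window held TATAAA at 96 and, on the opposite strand, 100 bases before the start. Of all 32851 mouse windows of this length, 12.6% held CAAAGT, 14.0% AGGTCA, 12.4% TATAAA and 0.384% the full CAAAGTCCA, which no member window held. Such matches describe letters in these windows, and no binding was measured.

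Most members that were not called lie near the top of the intensity scale, where signal can be compressed. The highest value of an array was 26616 to 29532, and on each array the 4 Apoa1 probe sets ranked between 5th and 14th from the top and Apoa2 between 8th and 19th. Probe sets of 6 members (Apoa1, Apoa2, Apob, Apoc1, Apoc3 and Apoe) were among the 200 brightest on every array, and the dimmest of these had a mean of 13.48 on the log2 scale. Of all 80 probe sets at or above that mean, 71 were not members, and of these 13 were higher and 7 lower, with a median log2 change of 0.00 and quartiles of -0.18 and 0.29. The largest rise among the 71, of 1.47, came from a probe set whose treated mean of 9200.8 was below the level of the range, and among the probe sets as bright as Apoa1 and Apoa2 the largest change was -0.67. How far signal is compressed at that level was not tested. Apoa5 (ranks 62 to 359) and Apoc2 (ranks 109 to 560) were called from a range slightly below it, and Apoa4 from ranks 685 to 3532. The dimmer Apob probe set, at ranks 1187 to 1849 and away from the top, was not called either. Deposited values from 100 upward were whole hundredths on the log2 scale (within 0.001), which is why exact ties such as that of Apoa2 occur.

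**Figure D4:**
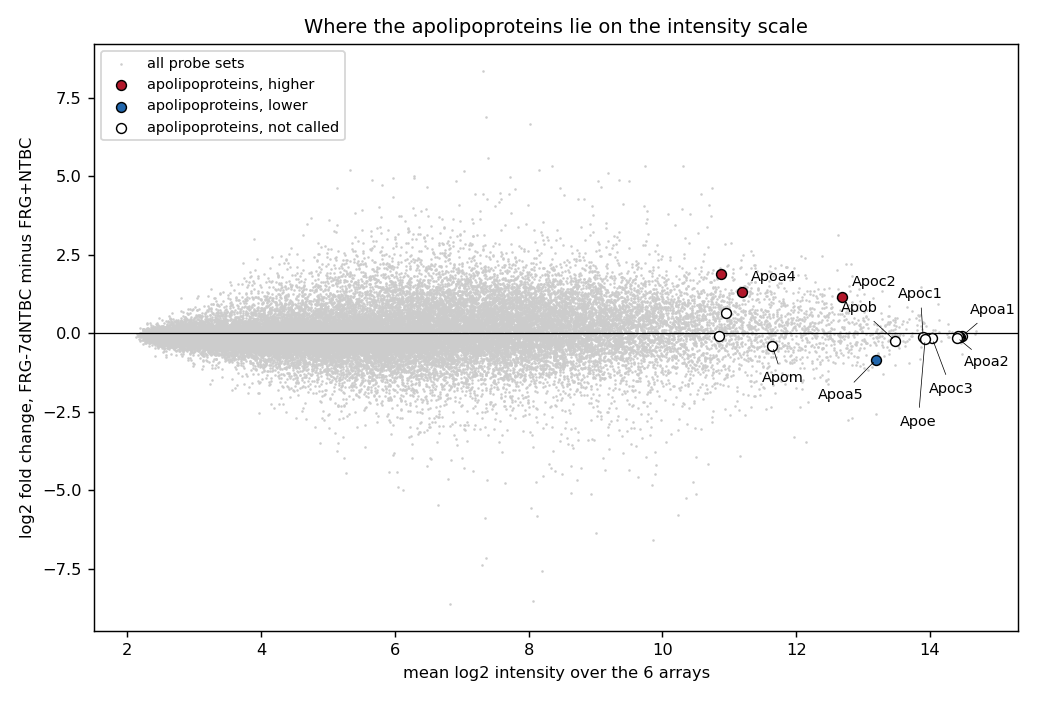
Log2 change, withdrawn minus treated, against mean log2 intensity over the 6 arrays for all 45037 probe sets (grey) and the 16 apolipoprotein probe sets (red higher, blue lower, white not called). Apoa1, Apoa2, Apoc1, Apoc3, Apoe and the brighter Apob probe set lie at the bright end near 0, while Apoa4, Apoc2 and Apoa5 were called at lower mean intensities.

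Genes that act with the apolipoproteins were read from lists, each gene by its brightest probe set, against a median log2 change of -0.05 over all genes, of which 17.4% were higher and 12.7% lower. Of 23 genes of lipoprotein assembly and secretion, 22 were measured, 10 were higher and 3 lower, with a median of 0.39. Mttp, the transfer protein that loads lipid onto Apob, rose from 1729 ± 241 to 4441 ± 373 (SD, n = 3 each), a log2 change of 1.37 (SE 0.14, limma adjusted p = 0.000431), while Apob itself was not called. The largest rise of the list was that of Cidec, a lipid droplet protein, from 17.8 to 478, followed by Mttp and Mia2, a cargo receptor for secretion (log2 change 1.25). The treated level of Cidec lies below the 20.1 of Rag2, so the size of its rise is uncertain. Cideb, which promotes VLDL lipidation, fell by 1.19 on the log2 scale. Without FRG+NTBC replicate 2 this list had 6 higher and 1 lower, and it had 1 lower when FRG+NTBC replicate 3 was left out. Under each of the other scalings 5 were lower. Of 6 genes listed around the editing of Apob mRNA, which shortens the protein made, 2 were higher and 2 lower. The higher ones were A1cf, the cofactor of the editing enzyme (log2 change 1.18), and Syncrip (0.54), with 1 of the 5 Syncrip probe sets called the other way. Khsrp (-0.77) and Apobec2 (-0.65) were lower. Apobec2 is a relative of Apobec1 by family, and no editing by it was measured. Only 1 of its 2 probe sets was called. Apobec1, the editing enzyme, had a log2 change of -0.00 (limma adjusted p = 0.990). Without FRG+NTBC replicate 2 the editing list had 1 higher and 1 lower. Each of the other scalings, and leaving out FRG+NTBC replicate 3, FRG-7dNTBC replicate 1 or FRG-7dNTBC replicate 3, gave 1 higher.

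Among 18 plasma lipases, remodeling factors and their regulators, the partners of Apoc2, Apoc3, Apoa5 and Apoa1 in plasma, 16 were measured, 3 were higher and 7 lower (median -0.24). Pltp, the phospholipid transfer protein, fell from 3232 to 600.5, and Pon1, an HDL esterase, from 7458 to 2554 (log2 changes -2.37 and -1.56). Itih4 fell by 1.44 on the log2 scale, and Pon3 rose by 2.25. Lpl, the lipase that Apoc2 activates, read 861, 891 and 1152 in FRG+NTBC mice and 4389.98, 936 and 3822 in FRG-7dNTBC mice. With withdrawn replicate 2 among the treated mice, this brightest probe set was not called (log2 change 1.38, limma adjusted p = 0.0863). The other of the 2 Lpl probe sets was called higher. Of 17 lipoprotein receptors and their regulators, 14 were measured, 2 were higher and 3 lower (median -0.31), shares not far from those of all genes. Cd36, a fatty acid uptake receptor, rose by 2.64 and Lrp8, an Apoe receptor, by 1.23, while Lrp1, the remnant receptor, fell by 1.34 and Scarb1, the HDL receptor, by 1.03 on the log2 scale. Only 1 of the 3 probe sets of Lrp8 and 2 of the 3 of Scarb1 were called.

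Of 32 transcription factors and cofactors known to act on apolipoprotein genes, 29 were measured, 1 was higher and 17 lower, with a median log2 change of -0.71. Ppara, a fatty acid sensor that acts on Apoa5, fell from 2825 to 579, a log2 change of -2.30 (SE 0.25, limma adjusted p = 0.000484). Its partner Rxra fell by 2.02, Srebf1, a regulator of fat synthesis, by 2.01, and Foxo1, which drives Apoc3, by 1.41 on the log2 scale. Hnf4a, a main activator of these genes in liver, fell from 5144 ± 335 to 3651 ± 334 (SD, n = 3 each), a log2 change of -0.50 (SE 0.13, limma adjusted p = 0.0225). Pparg was the only higher one, at 1.05, and 1 of the 4 probe sets of Hnf4a, 1 of the 3 of Rxra, 2 of the 4 of Foxo1 and all 3 of Ppara were called. Without FRG+NTBC replicate 2 the list had 11 lower, and none was higher after leaving out FRG+NTBC replicate 1, 2 or 3 or FRG-7dNTBC replicate 1 or 2. These are RNA levels, and the part of the regulators in the changes of Apoa5 or other members was not tested.

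Of 19 other apolipoproteins and related carriers, 15 were measured, 2 were higher and 6 lower (median -0.43). Apol7a fell from 1591 to 229, Saa4 from 4858 to 1003 and Saa1 from 223 to 63.4, the last pair being serum amyloid A proteins of HDL, with 1 of the 2 probe sets of Saa4 called. Apoc4 is given above, and Apof and Saa2 were the remaining lower ones (log2 changes -0.90 and -0.76). Saa2 averaged 21.7 in FRG-7dNTBC mice, close to the 20.1 of Rag2, so the size of its fall is uncertain. The higher ones, Apoo (1.35) and Apool (0.97), are mitochondrial inner membrane proteins despite their names, and 2 probe sets of Apool were called the other way. Clu, clusterin of HDL, averaged 12141 and 9149.9, which was not called (log2 change -0.43, limma adjusted p = 0.103).

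**Figure D5:**
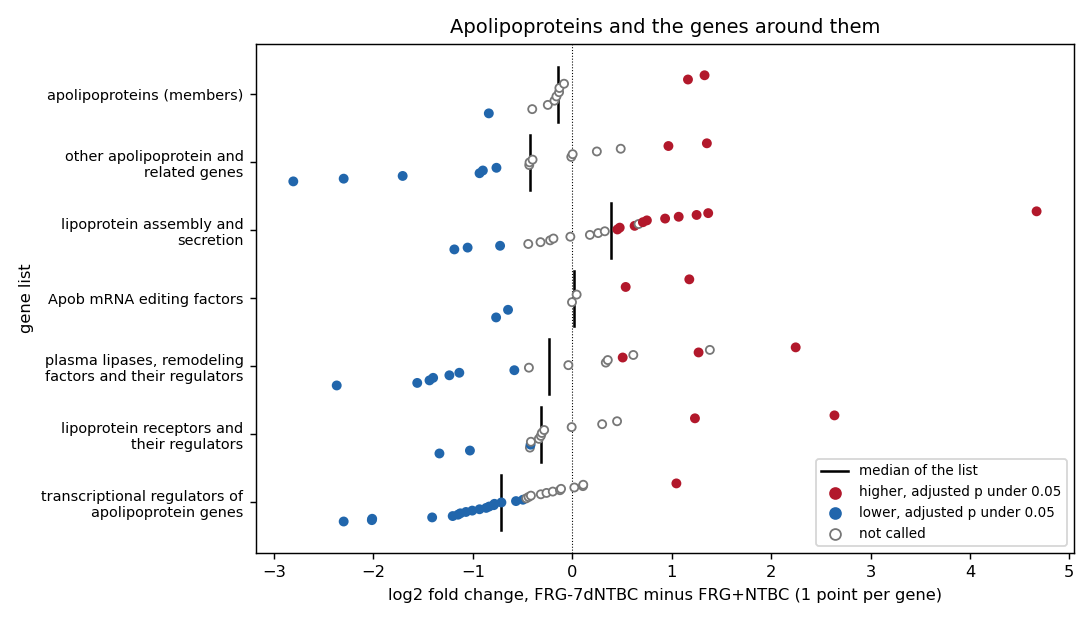
Log2 change, withdrawn minus treated, of each of the 10 apolipoproteins and of the genes of 6 lists around them, 1 point per gene at its brightest probe set, with the median of each list as a black line. The regulators lie mostly below 0 (17 lower, 1 higher), assembly genes mostly above it (10 higher, 3 lower), and the apolipoproteins near 0 apart from Apoa4, Apoc2 and Apoa5.

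The labelled tissue was checked by its markers. Of 12 hepatocyte markers 10 were measured, and their summed intensity was 130340 to 140870 in FRG+NTBC and 125150 to 135960 in FRG-7dNTBC mice. Much of this sum is Alb, Ttr and Serpina1c, which averaged 25775, 26130 and 25065 in FRG+NTBC mice. These lie at the top of the scale, where signal can be compressed, so the sum is a weak measure of hepatocyte content. None of the 10 was higher. The 3 lower ones were Ass1, a urea cycle enzyme (log2 change -2.38), Tat, which breaks down tyrosine (-1.92), and Cps1, the first enzyme of the urea cycle (-0.73), while Alb, albumin, had a log2 change of 0.08 (limma adjusted p = 0.620). Ass1 was read from 1 dim probe set, which averaged 115 in FRG+NTBC and 21.2 in FRG-7dNTBC mice. The latter is close to the 20.1 of Rag2, a gene knocked out in these mice, so the size of its change is uncertain. Tdo2 was not called at its brightest probe set (log2 change 0.27), while 2 of its 3 probe sets were called lower. Of the other cell types, 1 of 7 measured cholangiocyte and progenitor markers was higher, Prom1 at 1.77 (summed 292 to 308 and 284 to 593, Krt19 at -0.27, list median -0.12). The dimmer of the 2 probe sets of Epcam was also called higher. Among 10 stellate cell markers 1 was higher, Lrat at 1.14 (summed 3924 to 6073 and 4206 to 8208), and among 10 sinusoidal endothelial markers 2 were, Lyve1 at 1.78 and Clec4g at 0.74 (summed 2101 to 3286 and 3173 to 4045, Pecam1 at 0.48). None of 7 measured neutrophil markers passed (summed 201 to 274 and 194 to 299, S100a8 at 0.69, list median -0.12). The counts of higher cholangiocyte, stellate and endothelial markers ranged from 0 to 3, 0 to 4 and 1 to 5 over the alternatives run. The part of these cells in the levels of the apolipoproteins was not tested.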

How the data were processed

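Liver RNA of 6 mice, 3 per group as labelled, was hybridised to 1 array each. The authors deposited intensity values from Robust Multiarray Analysis, that is, background-corrected, normalized by quantiles and summed per probe set by median polish. The Transcriptome Analysis Console is listed in the submitters' processing notes. The values are linear, with array medians of 33.1 to 36.5, and log2 was taken here. The number of arrays limits the precision. Of 45037 probe sets, 34945 have 1 symbol in the array annotation, 932 several and 9160 none, and only the first were named.

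The groups were fitted with limma 3.58.1 under R 4.3.3 (lmFit, eBayes, two-sided, no covariate). Calls needed a p under 0.05 after Benjamini-Hochberg adjustment over the full array. The script was first tested on simulated data. Pairs of neighbours were compared by two-sided exact permutation. Quantile normalization and median polish can compress changes near the top of the scale, and probe sets ending in _x_at, _a_at or _s_at can bind several transcripts.

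The members and lists were chosen with earlier results of these data known. The text names every member, up to 4 called genes with the largest change and the best known gene of each list, the first gene of each marker list and the 3 genes most like Apoa4. Others named, chosen after their values were seen, are Apoc4, Apof, Saa2, Apool, Pparg, Vil1, Cdh17, Epcam and the called markers. Acaa1b, Fth1, Ttr, Serpina1c and Tdo2 were chosen in the same way. Listed genes without a probe set of their own symbol were not analysed here. Promoter windows and gene order come from RefSeq. Alternatives tried were other scalings, an offset of 16, a filter on dim probe sets, array weights, other moderation, no probe sets of several transcripts, other probe sets per gene, a replicate block and leaving out each mouse.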

Additional observations from a re-analysis of the deposited data

How the results depend on the processing

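Apoa5 and Apoc2 kept their direction and call under every alternative run, with adjusted p up to 0.0388 and 0.0168 from limma. Without moderation of the variances 2 member probe sets were called, 1 of them higher, 1 of them at least 2-fold, 1 gene was higher, and 30 rather than 58 genes of the lists were called. Both Apoa4 calls were lost there. With array weights 2 probe sets and 2 genes were lower, the added one being Apom. Of the members not called, Apob (1457554_at) changed sign to 0.063, Apoe to 0.018 and the log2 difference Apoc1 minus Apoe to -0.14 without FRG-7dNTBC replicate 3 (the other end of their range, without FRG-7dNTBC replicate 2, was -0.30, -0.37 and 0.21), and Apom by gene to 0.12 as the mean of its probe sets and 0.63 by the dimmest. The causes were not tested. Leaving out each mouse gave 4 probe sets called, 3 higher, 1 lower, 3 at least 2-fold, and 3 genes, 2 higher and 1 lower, each time, and 39 to 57 genes of the lists, the lowest without FRG+NTBC replicate 2. Equal replicate numbers did not pair the mice (correlations of deviations 0.11, 0.03 and -0.16), and the replicate block gave 4 member probe sets called, 3 higher and 1 lower, and 54 genes of the lists. Not every mouse correlated best with its own number. With 3 mice a group, the intervals of the members that were not called still allow changes, the widest being that of the dimmer Apom probe set (-0.21 to 1.48 on the log2 scale). Signal can be compressed near the top of the scale, where Apoa1 and Apoa2 lie, and this was not tested.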
